A study of Homo sapiens with 6 samples.

Results

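A group of 9 genes of nucleotide synthesis and fluoropyrimidine handling were followed in HCT116 cells, a human colorectal carcinoma line, after transfection of a microRNA mimic. They were TYMS, TK1, RRM1, RRM2, UMPS, DPYD, DUT, UPP1 and CAD, taken by name from a table of expression values, so that 9 of its 58735 genes were described. The table held 6 RNA-seq libraries of wild-type HCT116 cells, 3 from control-transfected cells (CTR) and 3 from cells given 50 nM miR-8485 mimics, the latter collected 48 h after transfection. The libraries came from independent biological replicates of this single line, and what the control cells were transfected with, and its dose, is not given in the sources used here. Expression was measured as FPKM, the fragments of a gene divided by its length and by the fragments of its library. Levels compared between genes depend on the gene lengths used, and a change in total RNA per cell cannot be seen. The libraries held 17473874 to 18480047 fragments on listed genes. The fragments of replicates differed by more than sampling noise, with a chi-square per gene of 2.68 to 9.60 within a group against 54.4 to 62.4 between groups, so that all 6 libraries were counted separately. The epithelial markers EPCAM, CDH1, KRT8, KRT18 and KRT19 lay between 18.7 and 1230 FPKM. Of 5 markers of blood, endothelium, connective tissue and liver, PTPRC, PECAM1, COL3A1 and ALB reached at most 0.462 FPKM, and COL1A1 lay between 4.05 and 6.402 FPKM. The summed level of the epithelial markers was 2598 to 2822 FPKM in CTR and 1724 to 1808 FPKM in miR-8485, that of the 5 others was 4.23 to 4.46 and 6.68 to 6.77 FPKM, with PTPRC at 0 in all CTR libraries. The part of these markers in the results was not tested.

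DNA replication needs a supply of all the deoxynucleotides, and thymidylate is the one that fluoropyrimidines deplete. Thymidylate synthase, the product of TYMS, methylates dUMP to dTMP and is the enzyme that an active metabolite of fluorouracil, a standard drug of colorectal cancer, blocks. TK1 makes dTMP by salvage of thymidine, DUT removes dUTP before it is built into DNA and supplies dUMP, and RRM1 and RRM2 are the large and small subunits of ribonucleotide reductase, which makes deoxynucleotides from ribonucleotides. CAD and UMPS carry most of the steps that build UMP anew, and UMPS also turns fluorouracil into a nucleotide. UPP1 cleaves uridine and can join fluorouracil to ribose, whereas DPYD starts the breakdown of uracil and of fluorouracil. Transcripts of TYMS, TK1, RRM1, RRM2 and DUT are known to be made mainly in cells that enter S phase.

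The mimic is shown first because a microRNA recognizes mRNAs mainly through its seed, bases 2 to 8, written here in capitals. It was taken from the methods of the study and is 17 bases long.

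miR-8485 mimic: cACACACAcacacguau

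The matching site in an mRNA is TGTGTGT. By GENCODE release 44 on GRCh38, the 3′ UTR of the canonical transcript held this site in 1 of the 9 genes, UMPS, against 4969 of 19538 protein-coding genes (25.4%). The UMPS 3′ UTR, at chr3:124744085-124749273 on the plus strand, held 19 overlapping copies in 5189 bases, of which 18 lay in a run of 42 alternating T and G bases. The 3′ UTRs of TYMS (581 bases), TK1 (668), RRM1 (549), RRM2 (2028), DPYD (1233), DUT (1295), UPP1 (379) and CAD (425) held 0 copies. Outside the canonical 3′ UTR, the canonical transcript of UPP1 held 3 copies, and another annotated DPYD transcript held 11. Which transcripts these cells use was not measured. The start of the UMPS run is shown, at chr3:124746752-124746781 on the plus strand, with the copies of the site that lie whole within this stretch in capitals.

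UMPS site: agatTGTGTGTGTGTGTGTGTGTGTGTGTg

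Promoters are shown for TYMS, the target of fluorouracil, for RRM2, which fell most, for DUT, and for CAD, which rose. RefSeq sequences of GRCh38.p14 matched all 9 genes, with 17 windows of 250 bases that end at an annotated start. Capitals mark the words TTCCCGC and TTGGCGC, which are forms of the E2F motif, and CCAAT, the core of the CCAAT box, on either strand and without overlap between them. The words were chosen with the direction of these genes known. The TYMS window lies at chr18:657403-657652, that of RRM2 at chr2:10122318-10122567, that of DUT at chr15:48331947-48332196 and that of CAD at chr2:27217119-27217368, all on the plus strand.

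TYMS promoter: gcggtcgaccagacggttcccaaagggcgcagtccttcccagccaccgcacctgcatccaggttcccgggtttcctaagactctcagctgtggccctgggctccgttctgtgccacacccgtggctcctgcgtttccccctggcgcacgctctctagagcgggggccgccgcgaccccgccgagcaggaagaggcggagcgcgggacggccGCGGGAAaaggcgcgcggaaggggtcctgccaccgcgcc
RRM2 promoter: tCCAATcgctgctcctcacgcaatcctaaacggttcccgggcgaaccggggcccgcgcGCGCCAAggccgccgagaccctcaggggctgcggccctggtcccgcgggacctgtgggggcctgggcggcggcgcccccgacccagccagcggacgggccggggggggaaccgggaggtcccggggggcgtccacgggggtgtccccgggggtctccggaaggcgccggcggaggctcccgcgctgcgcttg
DUT promoter: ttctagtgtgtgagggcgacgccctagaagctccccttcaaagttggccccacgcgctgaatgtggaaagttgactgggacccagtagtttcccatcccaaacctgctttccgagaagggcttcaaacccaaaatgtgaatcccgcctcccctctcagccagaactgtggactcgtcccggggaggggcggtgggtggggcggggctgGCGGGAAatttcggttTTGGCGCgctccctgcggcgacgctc
CAD promoter: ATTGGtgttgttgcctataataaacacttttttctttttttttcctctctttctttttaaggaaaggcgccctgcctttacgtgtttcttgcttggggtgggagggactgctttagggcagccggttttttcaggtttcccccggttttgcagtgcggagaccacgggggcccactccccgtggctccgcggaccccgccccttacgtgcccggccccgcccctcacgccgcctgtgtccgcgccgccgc

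The windows differ in the E2F words. TYMS holds 1 copy of TTCCCGC, RRM2 holds 1 of TTGGCGC, DUT holds 1 of each, and CAD holds neither but has 1 CCAAT. For RRM2 and DUT, the window shown is the only one of the gene with an E2F word. The other RRM2 window held 3 copies of CCAAT and neither E2F word, so the contrast with CAD depends on the windows shown. Over all windows, TK1, RRM1 and UPP1 also held TTCCCGC in 1 window each, whereas no window of CAD, UMPS or DPYD held either word. In all, 1 of 2 RRM2 windows, 1 of 2 TK1 windows, 1 of 4 DUT windows and 1 of 3 UPP1 windows held a word, so a gene with more starts had more chances. For comparison, TTCCCGC was in 5.52% and TTGGCGC in 2.56% of all 35116 windows, and 9.40% of 27305 genes held either word in at least 1 window. CCAAT was in 32.0% of windows and in 37.0% of genes, and was found in RRM2, RRM1, TK1 and CAD. The word CACGTG, in 6.34% of windows, was in none of the 17. Among all tested genes with a window, an E2F word was present in 16.7% of 2889 genes that were lower after miR-8485, in 14.3% of 2524 that were higher and in 16.6% of 3353 that were not called. Among the wider nucleotide genes described below, it was present in 2 of 16 lower, 4 of 20 higher and 3 of 16 uncalled genes, and among the S-phase genes described below in 6 of 8 lower genes, in the 1 higher gene and not in the 1 uncalled gene. A word in a window is not a binding site, and binding was not measured.

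Of the 9 genes, 6 were downregulated in the miR-8485 libraries, 1 was upregulated, 1 was not called and 1 was expressed too low to be tested with the others. RRM2, TYMS, TK1, UPP1, RRM1 and DUT fell, CAD rose, UMPS was not called and DPYD was below the filter. The test was limma on log2(FPKM + 0.1) restricted to the 12349 genes that averaged at least 1 FPKM, two-sided, with Benjamini-Hochberg adjustment and a call at an adjusted p under 0.05. In that test, 30.5% of all tested genes were lower and 29.1% were higher, so a call in either direction was common, and the counts of the 8 tested genes are to be read against those shares. Their median log2 fold change was -0.46, against -0.0041 over all tested genes. In bulk RNA, fewer cells in S phase and less of a transcript per cell cannot be told apart. The 3 miR-8485 libraries lay entirely below the 3 CTR libraries for 6 of the 8 genes and entirely above them for 2, where 34.0% and 32.5% of all tested genes did so. All fold changes are given as miR-8485 over CTR on the log2(FPKM + 0.1) scale, which understates the change of low genes.

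**Figure D1:**
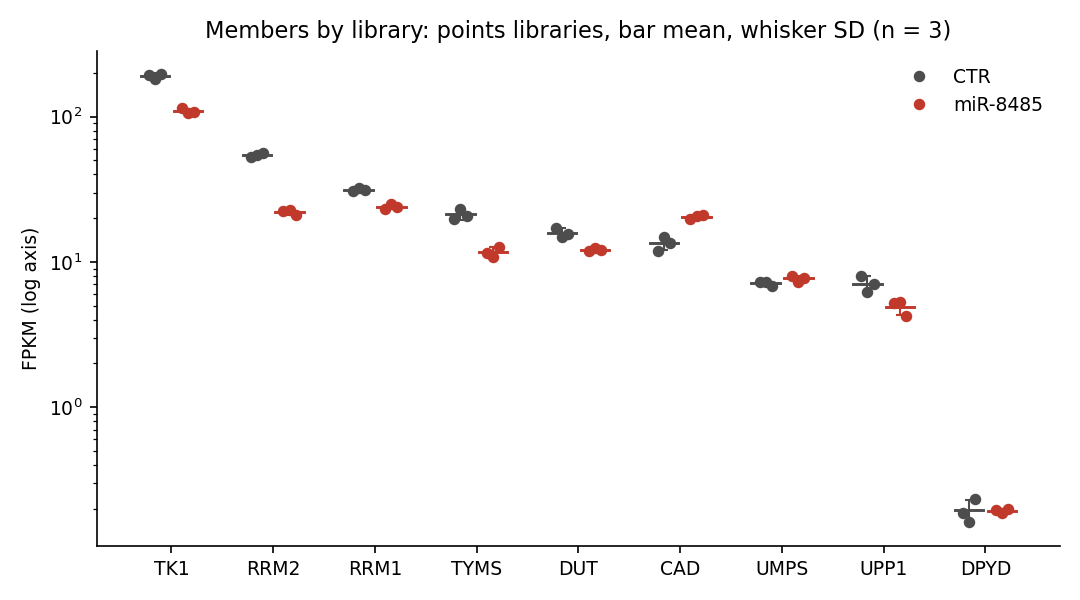
FPKM (vertical axis, log scale) of the 9 genes in each library, with points for libraries, horizontal bars for group means and whiskers for the SD (n = 3), CTR in grey and miR-8485 in red. TK1 is the highest gene in both groups at 191 and 109 FPKM, and DPYD lies near 0.19 FPKM in both.

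The order of the FPKM levels changed between the groups, and an order between genes depends on the gene lengths used. In CTR, the mean fell from TK1 through RRM2, RRM1, TYMS, DUT and CAD to UMPS, UPP1 and DPYD, and only the neighbours UMPS and UPP1 had overlapping libraries. In miR-8485, RRM1 stood above RRM2, and CAD stood above DUT and TYMS. DUT and TYMS, which were separate in CTR, had overlapping libraries in miR-8485.

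Thymidylate can be made by TYMS or by TK1, and both transcripts were lower after miR-8485. TYMS, identifier ENSG00000176890, lies at 657604 to 673578 of chromosome 18 of hg38, plus strand. It was read at 19.8, 23.1 and 20.8 FPKM in the CTR libraries and at 11.5, 10.7 and 12.6 FPKM in the miR-8485 libraries. Every miR-8485 library was thus well below every CTR library, at 54.8% of the CTR mean. The means were 21.2 ± 1.70 FPKM (SD, n = 3) and 11.6 ± 0.955 FPKM (SD, n = 3), and the log2 fold change was -0.86 (SE 0.08, 95% CI -1.05 to -0.68, adjusted p = 8.59e-05 in limma with Benjamini-Hochberg adjustment).

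TK1, thymidine kinase of the cytosol, lies on chromosome 17 at 78174075 to 78187233, minus strand (ENSG00000167900). Its level was 194, 182 and 197 FPKM in CTR and 114, 105 and 108 FPKM in miR-8485, the highest of the 9 genes in each library. The groups did not overlap, and replicates within a group differed little, with a coefficient of variation of 4.29% in CTR and 4.13% in miR-8485. The mean fell from 191 ± 8.18 to 109 ± 4.51 FPKM (SD, n = 3 each), a log2 fold change of -0.81 (SE 0.05, 95% CI -0.92 to -0.69, adjusted p = 1.56e-05 in limma).

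**Figure D2:**
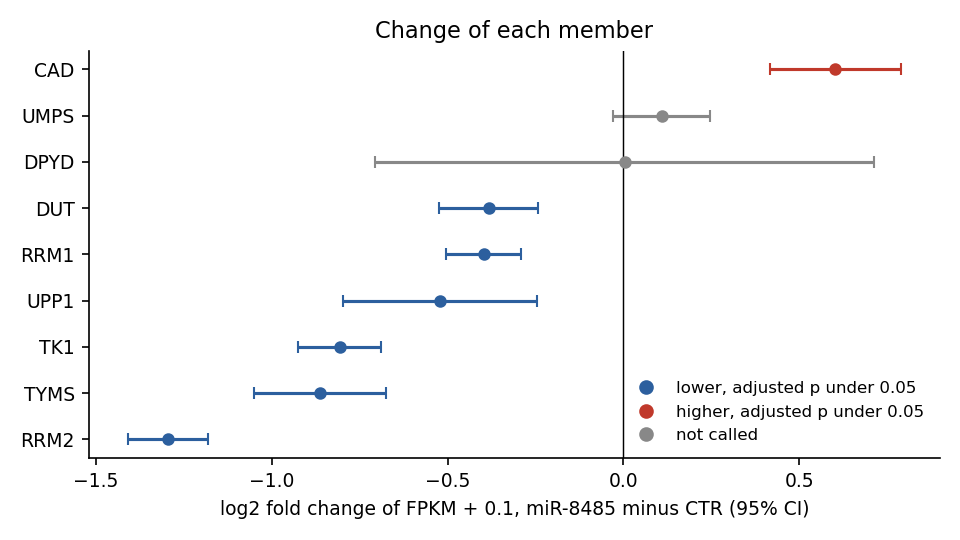
Log2 fold change of FPKM + 0.1 of each gene, miR-8485 minus CTR, with 95% confidence intervals from limma, genes called lower in blue, called higher in red and not called in grey. RRM2 lies farthest left at -1.29 and CAD is called higher at 0.60, while the intervals of UMPS and DPYD include 0 and both signs turned after rescaling to TPM.

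Both reductase subunits fell, the small one by more. RRM2, on chromosome 2 at 10120698 to 10131419, plus strand (ENSG00000171848), had 52.5, 54.2 and 56.0 FPKM in CTR and 22.3, 22.8 and 21.0 FPKM in miR-8485. The gap between the groups was more than the whole level left in miR-8485, and the mean went from 54.2 ± 1.74 to 22.1 ± 0.928 FPKM (SD, n = 3 each), or 40.7% of CTR. The log2 fold change was -1.29 (SE 0.05, 95% CI -1.41 to -1.18, adjusted p = 2.40e-06 in limma), the largest of the 9 genes. RRM1, on chromosome 11 at 4094707 to 4138876, plus strand (ENSG00000167325), had 30.9, 32.1 and 31.5 FPKM in CTR and 23.0, 24.8 and 23.8 FPKM in miR-8485. The libraries did not overlap here either, but the level in miR-8485 was still 75.9% of that in CTR. The means were 31.5 ± 0.625 and 23.9 ± 0.940 FPKM (SD, n = 3 each), with a log2 fold change of -0.40 (SE 0.05, 95% CI -0.51 to -0.29, adjusted p = 2.57e-04 in limma).

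Taken within each library, the ratio of RRM2 to RRM1 FPKM does not depend on how libraries are scaled. It was 1.70, 1.69 and 1.78 in CTR and 0.973, 0.918 and 0.882 in miR-8485. By FPKM, RRM2 thus exceeded RRM1 in every CTR library and in no miR-8485 library. This order rests on gene lengths of 5323 bases for RRM2 and 4177 for RRM1, against 3258 and 3142 in the canonical transcripts. With the canonical lengths, RRM2 would exceed RRM1 in every library. The change of the ratio between the groups does not depend on the lengths. The log2 difference was -0.90, and the exact permutation test, two-sided, gave p = 0.10, the smallest value that 3 against 3 libraries allow.

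RRM2B encodes the alternative small subunit, which p53 induces and which works outside S phase. Its level was 19.9, 20.2 and 19.3 FPKM in CTR and 21.8, 23.2 and 23.9 FPKM in miR-8485. All miR-8485 libraries were higher, with a log2 fold change of 0.21 (SE 0.05, adjusted p = 0.00772 in limma), but after rescaling to TPM the value was 0.10 and not called (adjusted p = 0.233). The share of RRM2B in the summed FPKM of RRM2 and RRM2B was 27.5%, 27.2% and 25.6% in CTR and 49.4%, 50.5% and 53.2% in miR-8485. The 2 small subunits were therefore at similar FPKM in the miR-8485 libraries, whereas RRM2 was the higher in CTR. Their relative level depends on the gene lengths used, but its change between the groups does not. The log2 ratio of RRM2B to RRM2 differed by 1.51 (exact permutation test, two-sided, p = 0.10, the smallest possible). SAMHD1, which degrades deoxynucleotides and completes this list of 4 genes, fell from 3.52 ± 0.159 to 2.70 ± 0.194 FPKM (SD, n = 3 each), a log2 fold change of -0.37 (SE 0.08, adjusted p = 0.00591 in limma). SAMHD1 lies outside the rule for named genes and was named after its value was seen.

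**Figure D3:**
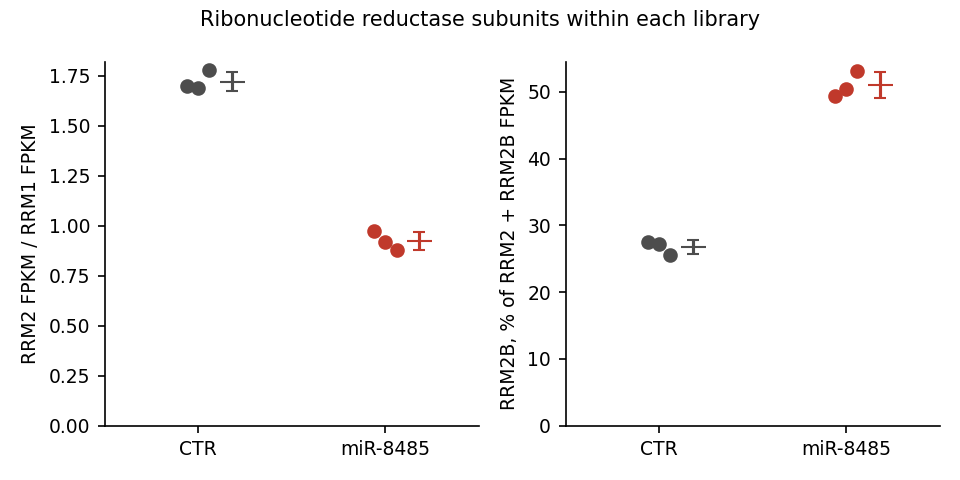
Left, RRM2 FPKM divided by RRM1 FPKM in each library. Right, RRM2B FPKM in percent of the sum of RRM2 and RRM2B FPKM. Points are libraries, and the bars beside them are means with SD (n = 3). The ratio lies between 1.69 and 1.78 in CTR and between 0.882 and 0.973 in miR-8485, and the mean RRM2B share is 26.8% in CTR and 51.0% in miR-8485.

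DUT, which keeps uracil out of DNA, was also lower. It lies on chromosome 15 at 48331011 to 48343373, plus strand (ENSG00000128951) and had 17.1, 14.9 and 15.6 FPKM in CTR and 11.8, 12.4 and 12.1 FPKM in miR-8485. The CTR libraries were more spread than the miR-8485 libraries, but the lowest of them was above the highest miR-8485 library. The mean fell from 15.9 ± 1.11 to 12.1 ± 0.297 FPKM (SD, n = 3 each), and the log2 fold change was -0.38 (SE 0.06, 95% CI -0.52 to -0.24, adjusted p = 0.00118 in limma). DUT has 8 pseudogenes in the table, with at most 17 fragments in any library against at least 781 for DUT itself, and fragments of near-identical copies could have been counted to either.

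UPP1 can lead fluorouracil towards nucleotides and DPYD leads it to breakdown, and the transcripts differed in how well they could be measured. UPP1, uridine phosphorylase, lies on chromosome 7 at 48088628 to 48108733, plus strand (ENSG00000183696) and had 8.01, 6.18 and 7.05 FPKM in CTR and 5.21, 5.25 and 4.23 FPKM in miR-8485. It was the most variable of the 8 tested genes, with a coefficient of variation of 12.9% in CTR and 11.8% in miR-8485, and still the groups did not overlap. The mean fell from 7.08 ± 0.913 to 4.90 ± 0.576 FPKM (SD, n = 3 each), with a log2 fold change of -0.52 (SE 0.12, 95% CI -0.80 to -0.25, adjusted p = 0.00648 in limma).

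DPYD, on chromosome 1 at 97077743 to 97995000, minus strand (ENSG00000188641), was read at 0.187, 0.163 and 0.232 FPKM in CTR and at 0.195, 0.186 and 0.199 FPKM in miR-8485. These levels rest on 24, 21 and 30 fragments and on 25, 24 and 27 fragments, and the libraries overlapped. In a limma fit of all 31768 genes above 0, which called 22.1% of them in either direction, the log2 fold change was 0.0036 with a 95% CI of -0.71 to 0.71 (adjusted p = 1.0). A change within that interval was not detectable at this depth.

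CAD was the only one of the 9 genes called higher. CAD, which holds the opening 3 enzyme activities of pyrimidine synthesis in a single protein, lies on chromosome 2 at 27217390 to 27243943, plus strand (ENSG00000084774). It was read at 11.95, 14.8 and 13.6 FPKM in CTR and at 19.6, 20.7 and 20.9 FPKM in miR-8485. The CTR libraries varied by 10.7% around their mean, less than the distance to the lowest miR-8485 library. The mean rose from 13.5 ± 1.45 to 20.4 ± 0.682 FPKM (SD, n = 3 each), a log2 fold change of 0.60 (SE 0.08, 95% CI 0.42 to 0.79, adjusted p = 4.93e-04 in limma).

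UMPS, which completes UMP synthesis, lies on chromosome 3 at 124730366 to 124749273, plus strand (ENSG00000114491). Its level was 7.29, 7.28 and 6.79 FPKM in CTR and 7.98, 7.32 and 7.75 FPKM in miR-8485. The miR-8485 libraries were all above the CTR libraries, the nearest pair only just, and the log2 fold change of 0.11 was not called (SE 0.06, 95% CI -0.03 to 0.25, adjusted p = 0.147 in limma). After rescaling to TPM it was -0.0055 (adjusted p = 0.949). UMPS is the gene with 19 copies of the mimic's site in its 3′ UTR, and in no alternative was it called lower.

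The wider nucleotide metabolism was described by 10 lists with 77 genes, the 9 genes included, of which 71 were tested. Without the 9, 63 genes were tested, of which 18 were lower, 26 were higher and 19 were not called, with a median log2 fold change of 0.08. With them, 24 were lower and 27 were higher, or 29 and 15 after rescaling to TPM, which moved the median of all tested genes from -0.0041 to -0.12 and called 38.3% of them lower and 21.2% higher. Counts after rescaling to TPM are to be read against these shares. Against the shares of 30.5% and 29.1% over all tested genes, the lists as a whole were thus not mainly lower. Without the genes chosen by name, pyrimidine salvage had 4 lower and 4 higher genes (median -0.13) and ribonucleotide reductase 1 of each (median -0.08), so the lower medians of these lists rest largely on the chosen genes. Differences between lists were not tested.

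**Figure D4:**
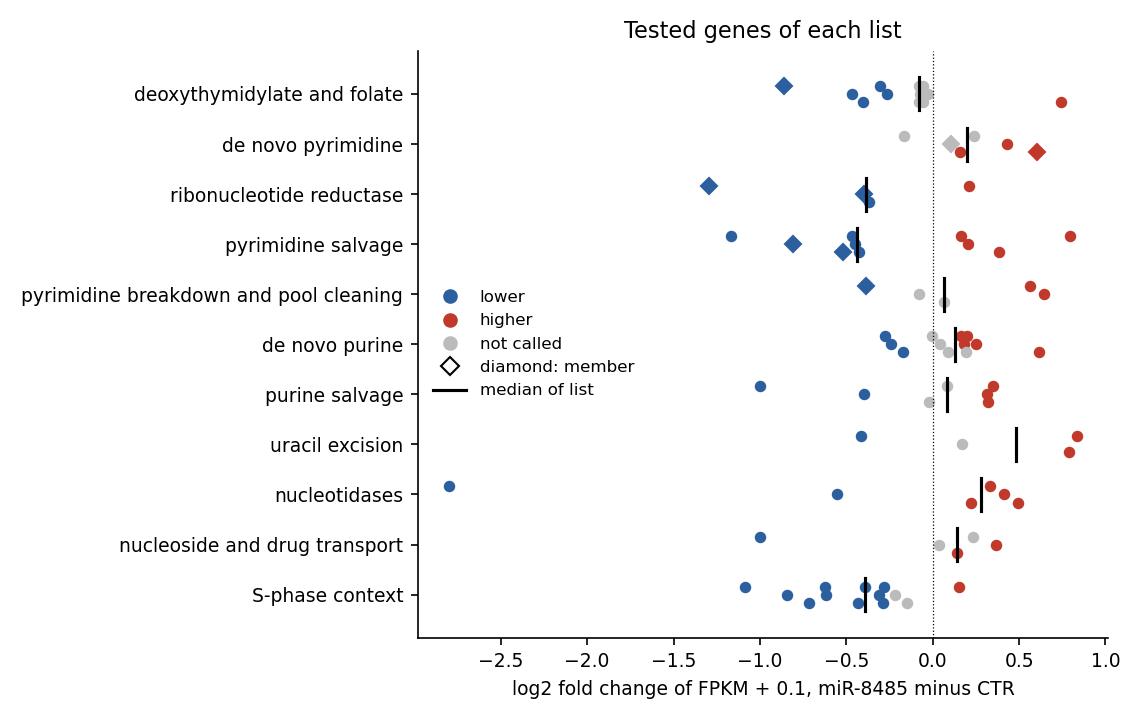
Log2 fold change of FPKM + 0.1, miR-8485 minus CTR, of the tested genes in 10 lists of nucleotide metabolism and in a list of S-phase genes. Each symbol is a gene (blue lower, red higher, grey not called, diamonds the genes chosen by name), and black ticks are list medians. Ribonucleotide reductase, pyrimidine salvage and S-phase genes have medians of -0.38, -0.44 and -0.39, and uracil excision has a median of 0.48. Without the diamonds, the former pair have -0.08 and -0.13.

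Of the 12 genes of deoxythymidylate and folate metabolism, 5 were lower, 1 was higher and 6 were not called, and after rescaling to TPM 9 were lower and 1 was higher. Beside TYMS, GGH fell from 22.0 ± 2.03 to 15.9 ± 1.09 FPKM (SD, n = 3 each), a log2 fold change of -0.47 (adjusted p = 0.00168 in limma). GGH trims the glutamate tail of folates. The other lower genes, named after their values were seen, were SHMT2 (-0.40) and MTHFD2 (-0.27) of mitochondrial folate metabolism and DTYMK (-0.30), which phosphorylates dTMP.

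In the list of de novo pyrimidine synthesis, 3 of 6 genes were higher, none was lower and 3 were not called, and after rescaling to TPM 2 were higher and 1 was lower. CTPS2, which makes CTP, had 2.79, 2.68 and 2.54 FPKM in CTR and 3.53, 4.02 and 3.34 FPKM in miR-8485. Its log2 fold change was 0.43 (SE 0.09, adjusted p = 0.00484 in limma), next to 0.60 for CAD. CMPK1, a kinase of pyrimidine monophosphates, had 0.16 and lost its call after rescaling to TPM (adjusted p = 0.603 in limma).

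All 10 genes of pyrimidine salvage were called, 6 lower and 4 higher, and after rescaling to TPM 6 were lower and 2 were higher. DCK, deoxycytidine kinase, which phosphorylates cytarabine and gemcitabine as well as its natural substrates, had the largest fall of the list. It had 15.0, 16.3 and 14.6 FPKM in CTR and 6.92, 7.21 and 6.13 FPKM in miR-8485, with a log2 fold change of -1.17 (SE 0.07, adjusted p = 1.72e-05 in limma). TK2, the thymidine kinase of mitochondria, went the other way, from 1.59, 1.57 and 1.46 FPKM to 2.46, 3.05 and 2.78 FPKM. Its log2 fold change was 0.80 (SE 0.11, adjusted p = 6.36e-04 in limma), nearly the size of the fall of the cytosolic TK1, though from a far lower level. TYMP, thymidine phosphorylase, which can also activate fluorouracil and which acts beside UPP1, rose from 6.64 ± 0.453 to 8.68 ± 0.531 FPKM (SD, n = 3 each), a log2 fold change of 0.38 (adjusted p = 0.00272 in limma).

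Uracil excision removes from DNA the uracil that DUT keeps out. Of its 4 genes, 2 were higher, 1 was lower and 1 was not called. UNG, the main uracil DNA glycosylase, was read at 25.6, 27.0 and 26.5 FPKM in CTR and at 48.5, 46.6 and 46.0 FPKM in miR-8485. Every miR-8485 library was thus far above the highest CTR library, with a log2 fold change of 0.83 (SE 0.04, adjusted p = 7.85e-06 in limma). SMUG1, another glycosylase, rose from 4.39 ± 0.455 to 7.62 ± 0.0800 FPKM (SD, n = 3 each), a log2 fold change of 0.79 (adjusted p = 1.21e-04 in limma). MBD4, a glycosylase of mispaired thymine and uracil, was lower, at -0.42 on the log2 scale (adjusted p = 0.00367 in limma).

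Among the 8 genes of pyrimidine breakdown and pool cleaning, 5 were tested, and 2 were higher, 1 (DUT) was lower and 2 were not called. The higher ones were hydrolases of unwanted nucleotides, ITPA with a log2 fold change of 0.65 and DCTPP1 with 0.56 (adjusted p = 1.38e-04 and 1.42e-04 in limma). DPYS and UPB1, the enzymes after DPYD in uracil breakdown, lay below the filter with means of at most 0.0244 FPKM. The median of this list was 0.06, and -0.05 after rescaling to TPM.

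Purine synthesis and salvage showed no common direction. Of 12 genes of de novo purine synthesis, 5 were higher, 3 were lower and 4 were not called, and after rescaling to TPM 1 was higher and 3 were lower. IMPDH2, which commits IMP to guanine nucleotides, rose from 130 ± 2.70 to 200 ± 2.79 FPKM (SD, n = 3 each), a log2 fold change of 0.62 (adjusted p = 1.45e-05 in limma), and its paralog IMPDH1 fell by 0.24 (adjusted p = 0.00265 in limma). GMPS, which acts on the product of both, fell by 0.28 on the log2 scale, and PAICS had 0.25 but lost its call after rescaling to TPM (adjusted p = 0.0664 in limma). In purine salvage, 3 of 7 genes were higher, 2 were lower and 2 were not called. ADA, adenosine deaminase, fell from 12.5 ± 0.323 to 6.26 ± 1.06 FPKM (SD, n = 3 each), a log2 fold change of -0.997 (adjusted p = 2.50e-04 in limma), and MTAP fell by 0.39. DGUOK and ADK, which phosphorylate deoxyguanosine and adenosine, had 0.35 and 0.32, the former without a call after rescaling to TPM (adjusted p = 0.0623 in limma).

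The nucleotidases held the gene with the largest change of all lists. NT5E (CD73), the ectoenzyme that makes adenosine from AMP, had 6.20, 5.94 and 6.22 FPKM in CTR and 0.712, 0.842 and 0.834 FPKM in miR-8485. Its log2 fold change was -2.80. The miR-8485 mean of NT5E was below 1 FPKM, so it reached the filter only through the CTR libraries. No test is given for it, though the counts of lower genes include it. Its canonical 3′ UTR of 1780 bases held 2 copies of the mimic's site. NT5C2, a cytosolic nucleotidase of purines, fell by 0.56 on the log2 scale. The 4 other nucleotidases were higher, of which 2 were so after rescaling to TPM. Among them, NT5M with 0.49 and NT5C3B with 0.41 had the largest rises, and NT5M lost its call after rescaling to TPM (adjusted p = 0.0739 in limma). Of 8 transporters, 5 were tested. ABCC4, an exporter of nucleotide analogs, fell from 4.94 ± 0.337 to 2.43 ± 0.204 FPKM (SD, n = 3 each), a log2 fold change of -0.998 (adjusted p = 7.22e-05 in limma). The equilibrative nucleoside carriers SLC29A2 and SLC29A1 had 0.37 and 0.14, and SLC29A1 lost its call after rescaling to TPM (adjusted p = 0.722 in limma). SLC28A1, SLC28A2 and SLC28A3 lay below the filter.

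Genes with and without the mimic's site could be compared over the 71 tested nucleotide genes. Of 23 genes with the site in the canonical 3′ UTR, 7 were lower, 9 were higher and 7 were not called, with a median log2 fold change of 0.14. Of 48 genes without it, 17 were lower, 18 were higher and 13 were not called, with a median of -0.01. The 3′ UTRs with the site were longer, at a median of 1990 against 586 bases. The 7 called genes among the 9, and DCK, ABCC4 and ADA, had no site in the canonical 3′ UTR. Among other genes that fell, MTAP held 3 copies, NT5E, MBD4 and GMPS 2 each, and MTHFD2, UCK1 and PPAT 1 each. The 9 higher genes with the site held 1 copy each. DHODH held 23 copies and was not called, with a log2 fold change of 0.24. UCK1, PPAT and DHODH lie outside the rule for named genes and were named for their copies. Of the S-phase genes, CDC6 held 4 copies and E2F1 5, and all others, most of them also lower, held none.

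Transcripts of S-phase entry were mostly lower as well. Of 13 such genes, all tested, 10 were lower, 1 was higher and 2 were not called, with a median log2 fold change of -0.39. Over all tested genes, 30.5% were lower and 29.1% higher. After rescaling to TPM, 12 of the 13 were lower and 0 higher, where 38.3% and 21.2% of all tested genes were so. Their summed level was 546 to 561 FPKM in CTR and 416 to 429 FPKM in miR-8485. No gene of this list was at 0. CDC6, which loads the replicative helicase, fell from 21.5 ± 0.276 to 10.1 ± 0.470 FPKM (SD, n = 3 each), a log2 fold change of -1.09 (adjusted p = 5.21e-06 in limma), and E2F2, a transcription factor of S-phase genes, fell by 0.84 (adjusted p = 1.21e-04 in limma). MCM7, a helicase subunit, had 0.15 and was not called after rescaling to TPM (adjusted p = 0.461 in limma). The part of this list in the changes of the 9 genes was not tested.

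The TYMS locus holds neighbours on the other strand, of which ENOSF1 was upregulated. ENOSF1, on the minus strand, shares 3255 bases with the 3′ end of the TYMS span. It had 3.36, 3.53 and 3.01 FPKM in CTR and 4.75, 4.64 and 4.18 FPKM in miR-8485. The groups were separate, with a log2 fold change of 0.44 (SE 0.09, adjusted p = 0.00305 in limma). TYMSOS, on the minus strand across the start of TYMS with 737 shared bases, had 0.852, 0.623 and 0.566 FPKM in CTR and 1.31, 1.30 and 2.21 FPKM in miR-8485. These levels rest on at most 41 fragments in any library. Its CTR mean was below 1 FPKM, so it reached the filter only through the miR-8485 libraries, and no test is given for it. Whether counting used the strand is not given in the sources used here, and without strand the fragments of overlapping antisense genes cannot be told apart. Of the other overlapping genes and pseudogenes of the 9 genes, those of DUT, RRM2 and DPYD had at most 17, 15 and 6 fragments in any library.

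**Figure D5:**
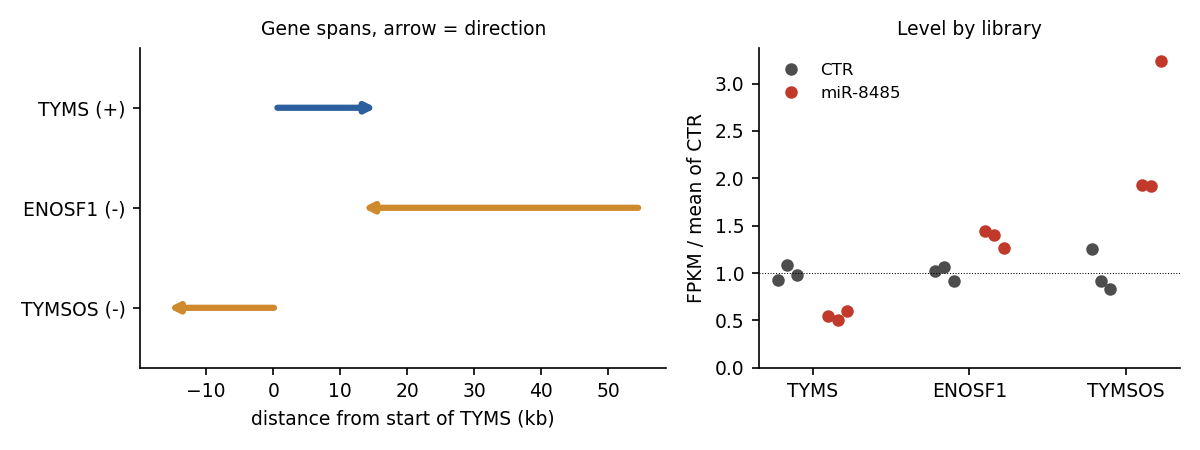
Left, spans of TYMS, ENOSF1 and TYMSOS as distance from the start of TYMS (kb), with arrows in the direction of transcription. Right, FPKM of each gene in each library divided by its CTR mean, CTR in grey and miR-8485 in red. The miR-8485 points lie below 1 for TYMS and above 1 for ENOSF1 and TYMSOS.

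The genes nearest to TYMS in their pattern were found by the Euclidean distance between profiles of log2(FPKM + 0.1) less the CTR mean, over the 6 libraries and 10721 protein-coding genes. They were POMGNT2 at a distance of 0.0632, CLIP2 at 0.129 and KCNJ12 at 0.139, with log2 fold changes of -0.86, -0.89 and -0.89. A small distance requires a similar fold change, so that likeness to TYMS follows from the selection and is not a result. POMGNT2 went from 17.9 to 9.80 FPKM on average, a level close to that of TYMS.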

How the data were processed

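RNA was measured in 3 CTR and 3 miR-8485 libraries of HCT116 cells, grouped by their sample titles. The authors trimmed the reads, mapped them to hg38 with HISAT2 2.0.5 and counted fragments per gene with featureCounts 1.5.0-p3. They deposited FPKM values and gene lengths, and the main test used these FPKM values with no further scaling. Multiplied by gene length, 100% of the values above 0 came out as whole fragments within 0.1, so the fragments of each gene could be given. Of 58735 genes, 26967 were at 0 throughout, and 0 sample columns were left unused.

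Log2(FPKM + 0.1) was tested with limma 3.58.1 in R 4.3.3, two-sided and with a trend in the variance, where the mean over libraries was at least 1 FPKM (12349 genes). Benjamini-Hochberg adjustment covered all of them, and genes were called at an adjusted p under 0.05. Tested on simulated data, limma recovered 197 of 200 changed genes with 9 false calls among 12422. The changes planted were log2 fold changes of 1, up or down, with the same dispersion for all genes. Smaller changes, noisier genes and data with as many changed genes as here were not simulated. Ratios were compared by exact permutation of libraries (scipy 1.17.1). Other calculations used Python 3.11.15 and pandas 2.3.3.

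The 9 genes, the lists and the words were chosen with earlier results of these data known. Named beside the 9 genes were, in each list, up to 2 called genes with the largest rise and up to 2 with the largest fall among those whose libraries did not overlap, antisense neighbours, and the 3 genes nearest to TYMS. The 3′ UTRs came from GENCODE release 44 and the promoters from RefSeq. Other pseudocounts, filters, scalings and variance models, a replicate block, voom on recovered fragments and leaving out each library were tried. Values of some individual genes in the lists are left out of the text.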

Additional observations from a re-analysis of the deposited data

How the results depend on the processing

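Under every alternative run, 6 of the 9 genes were called lower and 1 higher, the replicate block included. The log2 fold changes ranged from -1.41 to -1.26 for RRM2, -0.98 to -0.80 for TYMS, -0.92 to -0.78 for TK1, -0.64 to -0.42 for UPP1, -0.51 to -0.37 for RRM1, -0.50 to -0.33 for DUT and 0.49 to 0.68 for CAD. Rescaling to TPM lowered the number of higher nucleotide genes from 27 to 15, and the lower ones numbered 29 in place of 24. It moved the median of all tested genes to -0.12 and the share of higher genes among those called from 48.8% to 35.6%. UMPS had -0.0055 under TPM, and its adjusted p in limma was between 0.0511 and 0.949. DPYD changed sign with a pseudocount of 1 (-0.00034), median-of-ratios scaling (-0.00084), quantile normalization (-0.063) and TPM (-0.091), and with libraries left out it ranged from -0.074 to 0.096. The cause was not tested. With each library left out in turn, 23 to 24 nucleotide genes were lower and 21 to 25 were higher, the log2 ratio of RRM2 to RRM1 differed by -0.94 to -0.87, and that of RRM2B to RRM2 by 1.45 to 1.56. Requiring a mean of 5 FPKM left DPYD without a value.

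Samples of the same number did not deviate together, with correlations of 0.0668, 0.0335 and -0.064, against -0.0938 to 0.0608 for different numbers. No shared effect of the number was thus seen. These correlations cannot show whether the replicates were run as matched sets. With the replicate number as a block, 24 nucleotide genes were lower and 28 higher. Depth limits DPYD, with at most 30 fragments in any library. With 3 libraries a group, the exact permutation test used for the ratios cannot give p below 0.10.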
